A study of Mus musculus with 24 samples.

Results

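Small RNA released in exosomes by primary mouse hepatocytes was set against small RNA of the hepatocytes themselves. The comparison used 12 of the 24 samples of the study: 6 libraries of exosomes collected from the culture medium of primary hepatocytes and 6 libraries of the cultured cells. Both materials came from untreated control cultures, from cultures given 20 mM acetaminophen, a liver toxicant at high dose, and from cultures given 20 mM acetaminophen with 1 µg/ml granulocyte colony-stimulating factor (G-CSF). Each condition was sequenced once on an Ion Torrent PGM and once on an Ion Torrent Proton, and the deposited tables hold 1 combined column per condition. The 3 columns of a material were summed, and a hairpin (precursor) or mature miRNA was measured where at least 10 estimated counts were present on either side. This left 360 of 1186 hairpins and 120 of 1915 mature miRNAs. At the limit on the exosome side, mir-669c was kept with 10 exosome and 3.4 hepatocyte counts and mir-1954 was left out with 9.35 and 3.6. How many mice or cultures each column stands for, and how pure the cells and the exosome fraction were, is not given in the labels.

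Exosomes are small vesicles of endosomal origin that cells release into their surroundings, and they carry proteins and RNA. A miRNA is cut from a hairpin precursor, first in the nucleus and then in the cytoplasm, and guides silencing of messenger RNAs that match its seed. The miRNA content of exosomes is known to differ from that of the parent cell, and RNA-binding proteins that read short motifs have been described in this sorting. In hepatocytes, miR-122 is by far the most abundant miRNA, and miR-192 and miR-194 are also typical of the cell.

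The mature sequences of the miRNAs on which the comparison turns are listed here. They are RefSeq sequences of build GRCm38.p6, written 5′ to 3′, with the seed (bases 2 to 8) in capitals. The first group had a larger share of counts in exosomes. The gene of miR-3470b lies at chr16:44013885-44013905 and miR-466i-3p at chr13:17747552-17747573, both on the plus strand, and miR-1187 lies at chr5:82798964-82798986 on the minus strand. None of them had a host gene annotated on its own strand, and genes on the other strand were not examined. miR-5129-5p lies at chr2:45023146-45023167 on the minus strand within an intron of Zeb2, miR-8117 at chr5:50252823-50252843 on the plus strand within an intron of Gm7205, and miR-2137 at chrX:72992113-72992133 on the plus strand within an intron of Zfp185.
miR-3470b: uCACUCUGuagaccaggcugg
miR-466i-3p: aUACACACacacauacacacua
miR-1187: uAUGUGUGuguguauguguguaa
miR-5129-5p: aUGUGGGGgcauugguauuuuc
miR-8117: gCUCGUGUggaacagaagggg
miR-2137: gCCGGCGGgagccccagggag

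The second group had a smaller share of counts in exosomes and consists of miRNAs abundant in the hepatocytes. miR-192-5p and miR-215-5p have the same seed, as do miR-19a-3p and miR-19b-3p. miR-21a-5p lies at chr11:86584120-86584141 on the minus strand within an exon of Vmp1, and miR-30c-5p at chr1:23291714-23291736 on the plus strand within an exon of Gm27028. miR-192-5p lies at chr19:6264857-6264877 on the plus strand, with no host gene annotated on that strand. miR-215-5p lies at chr1:185313610-185313630 on the plus strand within an exon of 2010103J01Rik. miR-19a-3p and miR-19b-3p lie at chr14:115044048-115044070 and chr14:115044358-115044380, both on the plus strand within exons of Mir17hg. miR-30c-5p and miR-19b-3p each have 2 loci, of which 1 is given here, and their counts cannot be assigned to that locus alone.
miR-21a-5p: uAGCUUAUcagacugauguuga
miR-30c-5p: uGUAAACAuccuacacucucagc
miR-192-5p: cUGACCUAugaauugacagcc
miR-215-5p: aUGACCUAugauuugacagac
miR-19a-3p: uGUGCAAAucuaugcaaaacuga
miR-19b-3p: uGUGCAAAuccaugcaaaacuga

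The full sequence of miR-3470b, with T for U, also occurs in annotated transcripts of 546 other genes. miR-1187 and miR-466i-3p each hold an unbroken run of 11 letters of alternating U and G, or A and C. Runs of at least 10 such letters were present in 2 of the 8 mature miRNAs of larger exosome share that have a RefSeq entry, in 0 of 11 of smaller share, and in 2 of all 108 measured miRNAs with an entry. Median GC content was 53.57% in the first group, with a range of 34.78 to 85.71%, 39.13% in the second, with a range of 30.43 to 52.17%, and 45.45% over all 108. Of the 120 measured mature miRNAs, 7 reached the count limit through exosome counts alone and 112 through hepatocyte counts alone. Both miRNAs with such runs are among the 7. The count limit therefore shaped these contrasts of runs and GC content, and they are no support for a difference in sequence.

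The exosome columns were very shallow. The control, acetaminophen and acetaminophen plus G-CSF columns held 910.65, 167.35 and 172.95 hairpin counts in exosomes against 838624, 179751 and 139361 in hepatocytes. Mature counts numbered 335, 91 and 47 in exosomes against 26741, 5330 and 4450 in hepatocytes. In sum, 1250.95 exosome hairpin counts stood against 1157735 hepatocyte counts, a 925.5-fold difference in depth, and 473 mature counts stood against 36521. A hairpin with no exosome count could still make up 0.2398% of exosome hairpin counts (3 counts of the total), and a mature miRNA 0.6342% of mature counts. All values below are shares of a total, with exact 95% intervals that cover counting error only, so they do not say how much of a miRNA a cell or a vesicle holds. The exosome sum also leans on the control column, which supplied most of its counts.

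Of the 360 measured hairpins, 82 (22.8%) had a share at least 2-fold larger in exosomes with an interval that excluded 1, and 39 (10.8%) had a smaller one. The count limit bears on these calls: 339 of the 360 hairpins reached it through hepatocyte counts alone, 11 through exosome counts alone and 10 through both. At this difference in depth a hairpin that reached it through exosomes alone had to show a larger exosome share, and a smaller share could be called only for hairpins abundant in hepatocytes. Of the 82, 21 rested on at least 10 exosome counts, 49 on 2 to 9 and 12 on a single count. In 15 of the 82 the interval excluded 1 in each of the 3 treatments taken alone, and in 45 in 1 treatment. All 3 exosome columns lay above all 3 hepatocyte columns in 32 of the 82, where this held for 33 of all 360 hairpins (9.17%). They lay below in 32 of the 39, but also in 182 of the 360 (50.6%), most of which had no exosome count. Of the 39, 18 had an exosome count that rounded to 0, and in 2 of the 39 the interval excluded 1 in each treatment. Without the exosome control column the numbers were 35 and 11, and without the control columns of both materials 19 and 12. Without the hepatocyte control column 47 hairpins had a larger share. Of the 120 measured mature miRNAs, 10 (8.33%) had a larger share in exosomes and 13 (10.8%) a smaller one. Exosome columns lay below hepatocyte columns in 11 of these 13 and in 77 of the 120 (64.2%). Without the exosome control column 1 mature miRNA had a larger and 4 a smaller share.

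**Figure D1:**
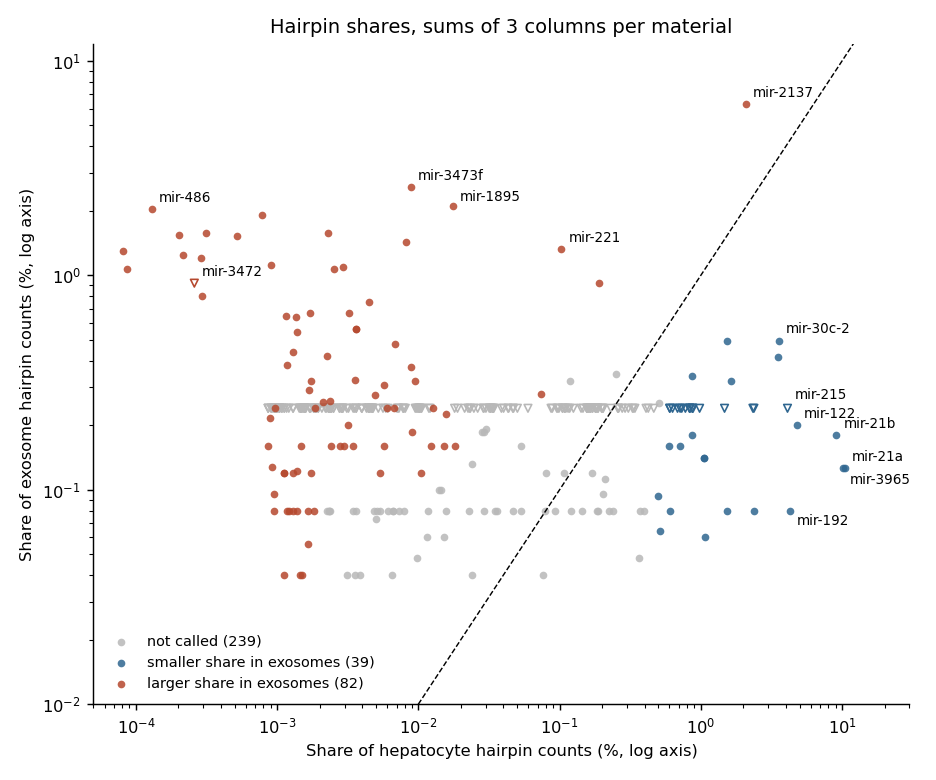
Each point is 1 of 360 hairpins, with its share of summed hepatocyte hairpin counts on the horizontal log axis and of summed exosome hairpin counts on the vertical log axis, both in percent. The dashed line marks equal shares, open triangles mark a hairpin whose count rounded to 0 on a side, drawn at the share that 3 counts would give, and the 82 hairpins of larger exosome share lie at the upper left, far from mir-21a, mir-122 and mir-192 at the lower right.

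These directions are those of shares. A scaling by trimmed mean of M values (TMM) or by DESeq2 size factors, which assumes that most entries do not differ, moved every hairpin ratio towards the hepatocytes by 7.90 or 8.49 on the log2 scale. The split between larger and smaller shares then turned from 82 and 39 to 13 and 256 under TMM and to 12 and 290 under DESeq2 factors. Since both scalings shift every ratio the same way, calls of a smaller share could not be lost, and they are no check of those calls. Of the 82 calls of a larger share, 12 held under both scalings. The same 12 had more estimated counts in exosomes than in hepatocytes before any scaling. All but mir-3473c were measured through exosome counts alone. For those, the excess of exosome counts was fixed by the count limit. At this difference in depth, holding under both scalings was nearly fixed as well, so neither is a check of their calls. The 12 are mir-486, mir-3470a, mir-3470b, mir-3471-1, mir-3472, mir-3473c, mir-5098, mir-6369, mir-6398, mir-669c, mir-8111 and mir-8117. Of the 10 mature miRNAs of larger share, 7 kept their call under both scalings, and these 7 were the ones measured through exosome counts alone. That route favoured keeping a call at this difference in depth, so this is no check of the 7 calls. The splits were 7 and 79 under TMM and 7 and 108 under DESeq2 factors.

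The hairpin mir-486, whose miRNA is abundant in red blood cells and muscle, had the highest lower interval limit of these 12. It had 17.5, 3 and 5 estimated counts in the control, acetaminophen and acetaminophen plus G-CSF exosome columns. In the matching hepatocyte columns it had 1, 0 and 0.5 counts. Its share was therefore higher in all 3 exosome columns (1.922, 1.793 and 2.891%) than in any hepatocyte column. The ratio of shares was 15733, with an interval of 3012 to 104597. No mature count of miR-486 was present in either material, although 4 mature entries of that name were in the table.

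Several of the remaining hairpins belong to a list taken here as resembling short interspersed repeats (SINEs), or share sequence with transcripts of other genes. The hairpin mir-3472 had 7.333, 2.917 and 1.25 exosome counts and none in any hepatocyte column, so its share was at least 3548-fold larger in exosomes, with 2572 as the lower limit of the interval. mir-3470b had 21.62, 0.2 and 2.2 exosome counts against 7.283, 0.6 and 1.133 hepatocyte counts, a ratio of 2465 (1107 to 6033). Its exosome shares exceeded its hepatocyte shares in all columns, but the control column carried nearly all of its exosome counts. mir-3470a had 16.07, 0.25 and 0 exosome counts against 0.4, 0 and 0.5333 in hepatocytes. With an exosome column at 0, the 2 materials overlapped for mir-3470a, and its ratio of 16180 (2300 to 620967) rested on the control column.

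mir-3471-1 had 8.667, 1.5 and 3.25 exosome counts against 1, 0 and 0 in hepatocytes, a ratio of 12417 (1807 to 511303). All 3 of its exosome columns lay above all hepatocyte columns. mir-6369 had 9.5, 2.5 and 3.5 exosome counts against 1.5, 1 and 0, a ratio of 5738 (1413 to 26434). Stretches of 20 bases of these hairpins were found in transcripts of other genes, 43 genes for mir-3471-1, 23 for mir-6369, 205 for mir-3472 and 464 for mir-3473c. Estimated counts of such entries can include reads of other transcripts, which was not tested. mir-3473c had 13.97 exosome and 10.45 hepatocyte counts, a ratio of 1237 (535 to 3260), and 13.37 of its exosome counts were in the control column.

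The remaining hairpins of the 12 were entries of high registry number and mir-669c. mir-5098 had 14.93, 1.5 and 3.25 exosome counts against 2.4, 1 and 0.2 in hepatocytes, a ratio of 5060 (1550 to 18619). mir-8111 had 16.63, 1 and 1.6 exosome counts against 0.6, 0.8 and 0.9333, a ratio of 7629 (2121 to 77844). mir-8117, from the Gm7205 intron shown above, had 13.33, 0.6667 and 1 against 1.333, 1 and 1, a ratio of 4165 (1309 to 24937). In these 3 hairpins every exosome column exceeded every hepatocyte column as a share. mir-6398 had 17, 2 and 0 exosome counts against 0, 3 and 3, so its columns overlapped, with a ratio of 2931 (1125 to 8966). mir-669c had 8.8, 0.2 and 1 exosome counts against 1.8, 1.2 and 0.4, a ratio of 2722 (794 to 17444).

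**Figure D2:**
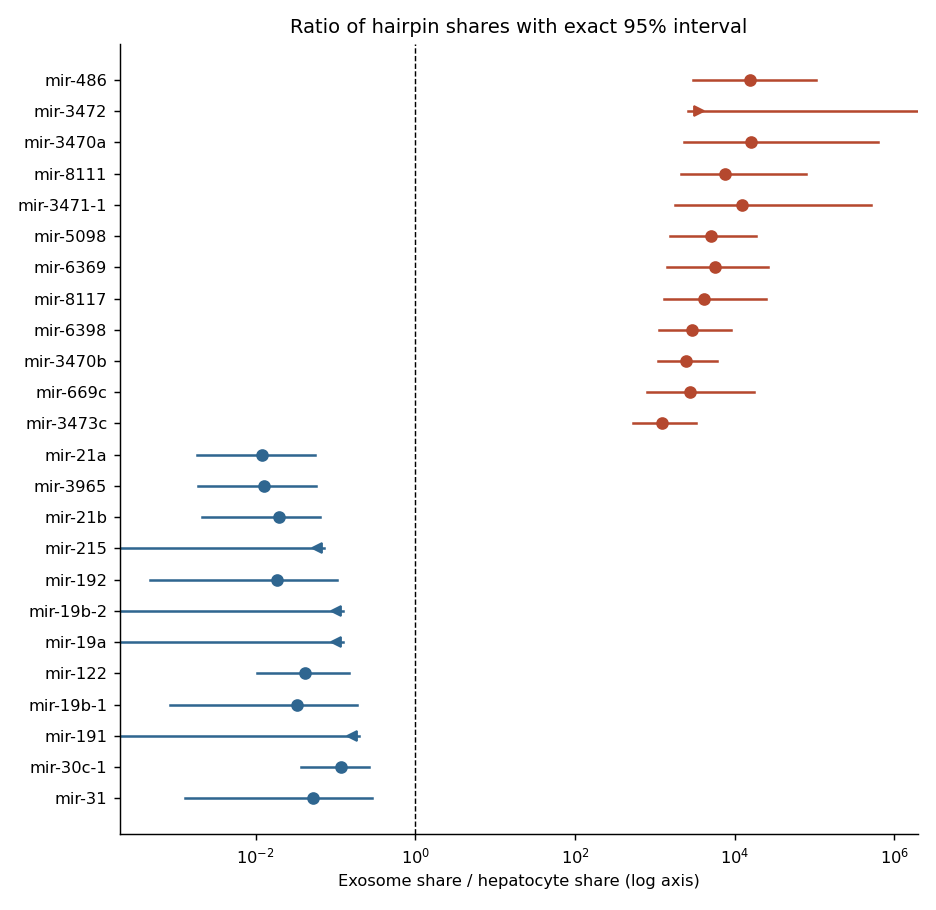
Ratio of exosome share to hepatocyte share on a log axis for the 12 hairpins per direction whose interval lay farthest from 1, with exact 95% intervals as lines; triangles mark ratios that are bounds because the count of 1 side rounded to 0, and lines reaching the frame run beyond it. The upper 12 have lower limits from 535 to 3012 and the lower 12 have upper limits below 1.

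Other hairpins with many exosome counts depended on the scaling. mir-2137, from the Zfp185 intron, had the most exosome counts of any hairpin, 21, 44 and 14, against 1376, 13078 and 9625 in hepatocytes. Its share was 2.306, 26.29 and 8.095% in exosomes and 0.1641, 7.275 and 6.907% in hepatocytes, so the materials overlapped. Within treatments the ratio was 14.1 (8.67 to 21.6) in control, 3.61 (2.62 to 4.85) with acetaminophen and 1.17 (0.641 to 1.97) with acetaminophen plus G-CSF. The ratio of the sums was 3.04 (2.4 to 3.79), and it turned to a smaller exosome share without the hepatocyte control column (log2 ratio -0.17) and under TMM (-6.30). The mature miR-2137 had 3, 25 and 6 exosome counts against 27, 237 and 202, a ratio of 5.63 (3.85 to 7.99).

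mir-3473f had 20.63, 4.383 and 7.367 exosome counts against 68.83, 21.35 and 12.18, a ratio of 293 (189 to 436), and its 20-base stretches were found in 988 other genes. Its exosome shares, 2.266 to 4.259%, were all above its hepatocyte shares, which stayed below 0.012%. mir-1895 had 10, 11.33 and 5 exosome counts against 34.67, 120.2 and 48.33, a ratio of 120 (75.6 to 179). Neither mir-3473f nor mir-1895 had a mature count in either material. mir-7116 had 1.233, 3.683 and 13.02 exosome counts against 54.75, 19.1 and 21.08, a ratio of 175 (99.7 to 292), with the highest share in the acetaminophen plus G-CSF column. mir-3471-2 had 15.87, 1.5 and 2.25 exosome counts against 0, 24 and 2.333, a ratio of 689 (377 to 1326).

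mir-1946a had 8.1, 1.7 and 3.533 exosome counts against 16.8, 11.6 and 1, a ratio of 420 (198 to 824), with all exosome shares above all hepatocyte shares. mir-1195 had 13.13, 0.2 and 0.4 against 32.37, 1.4 and 0.25, a ratio of 374 (189 to 729) that rested mainly on the control column. mir-6240 had 11.5, 0 and 0 exosome counts against 498.5, 1119 and 580.6, so its columns overlapped, with a ratio of 4.84 (2.61 to 8.84). Under TMM its log2 ratio was -5.62.

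mir-221 is a precursor whose miRNA is known from proliferating cells and liver tumours. It had 15.27, 0.8333 and 0.5333 exosome counts against 970.2, 149 and 67 in hepatocytes. The ratio was 13 (7.7 to 21.3), and the interval excluded 1 in 1 treatment. Under TMM its log2 ratio was -4.20, under DESeq2 factors -4.79. mir-1895, mir-7116 and mir-6240 also turned to a smaller exosome share under both scalings, and mir-3473f under DESeq2 factors.

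**Figure D3:**
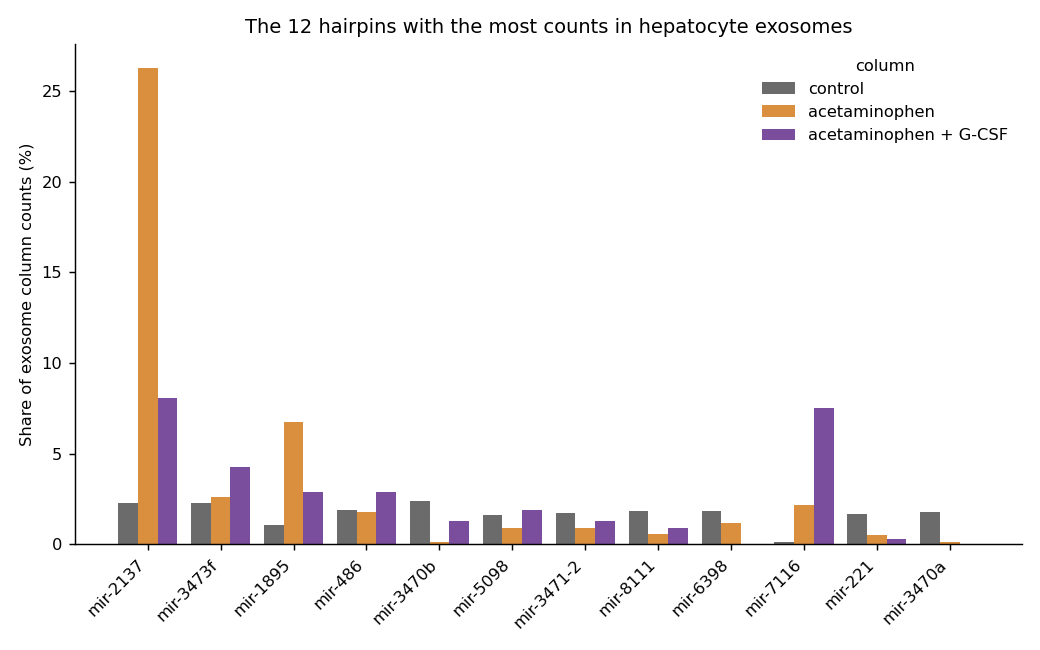
Share of each exosome column, in percent, for the 12 hairpins with the most exosome counts; bars stand for the control, acetaminophen and acetaminophen plus G-CSF columns, 1 column each, with no error bar. mir-2137 reached 26.29% with acetaminophen, and mir-3470a, mir-3470b and mir-221 were highest in the control column.

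Repeat-like hairpins were described as groups by their summed shares. The 5 entries of the SINE-like list held 5.042% of exosome hairpin counts (3.891 to 6.398%) and 0.003737% of hepatocyte counts, a 1349-fold ratio (906 to 2047). Its 4 measured members all had a larger share in exosomes, but 3 of them were measured through exosome counts alone, so this count is no support beside the 22.8% of all hairpins. Hairpins named mir-297, mir-466, mir-467 and mir-669, names shared by the repeat-rich cluster of the rodent gene Sfmbt2, held 8.484% of exosome counts (6.989 to 10.16%) and 0.05473% of hepatocyte counts, a ratio with an exact interval of 125 to 190. Of their 13 measured members, 7 had a larger share and 0 a smaller one. Examples are mir-466i with 8.367 exosome and 19.6333 hepatocyte counts (394-fold) and mir-466q with 8.1 and 13.4 (559-fold). All but mir-669c of the 13 were measured through hepatocyte counts, and the 7 stand beside 22.8% of all hairpins.

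Every exosome column exceeded every hepatocyte column for both repeat lists. The SINE-like share ran from 2.281 to 6.056% in exosomes and from 0.001866 to 0.01483% in hepatocytes. The Sfmbt2-type share ran from 4.004 to 9.433% in exosomes and from 0.04928 to 0.06924% in hepatocytes. The exact two-sided permutation test over 3 against 3 columns gave p = 0.1 for each list, the smallest value that this design allows, so no list can pass 0.05. In the mature table the Sfmbt2-type list held 21.48% of exosome counts (17.94 to 25.55%) and 0.01095% of hepatocyte counts, and it held 21.36 to 21.99% in the 3 exosome columns.

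Hairpins numbered mir-6896 to mir-7094, taken here as mirtron-type (cut from short introns), held 8.332% of exosome counts (6.843 to 9.983%) and 0.2636% of hepatocyte counts, a 31.6-fold ratio (25.7 to 38.3). Only 20 of the 202 reached 10 counts on a side, and 3 of the 20 had a larger share, mir-6935, mir-6981 and mir-7058. That proportion is not above the 22.8% of all measured hairpins. By annotation mir-6935 and mir-7058 overlapped exons of Actg1 and Lat, and mir-6981 had no RefSeq entry. The name of the group rests on registry numbers, and an origin in introns was not tested. The list of mir-2137, mir-5097 to mir-5136 and mir-6236 to mir-6244 held 12.17% of exosome counts (10.39 to 14.09%) and 3.373% of hepatocyte counts, but its columns overlapped and the exact permutation p was 0.3. Of its 17 measured members 7 had a larger and 1 a smaller share, beside 22.8% and 10.8% of all hairpins. Of the 17, 1 was measured through exosome counts alone, where a larger share was fixed, and 2 through both sides.

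Registry numbers follow the order in which miRNAs were named, so that low numbers mostly mark widely studied miRNAs. Hairpins numbered 1000 and over held 66.52% of exosome hairpin counts (63.82 to 69.12%) and 17.38% of hepatocyte counts. By column they held 64.4 to 79.87% in exosomes and 15.13 to 24.49% in hepatocytes. Without mir-3965, whose hepatocyte counts followed those of mir-21a, the hepatocyte share was 7.297% in sum and 1.475, 23.83 and 21.01% in the control, acetaminophen and acetaminophen plus G-CSF columns, and the exosome share 66.4%. In the mature table all entries numbered 1000 and over held 61.36% (56.76 to 65.72%) against 2.413%. Those under 1000, leaving out the repeat names and miR-706, held 24.73% of exosome hairpin counts (22.33 to 27.19%) and 82.57% of hepatocyte counts.

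**Figure D4:**
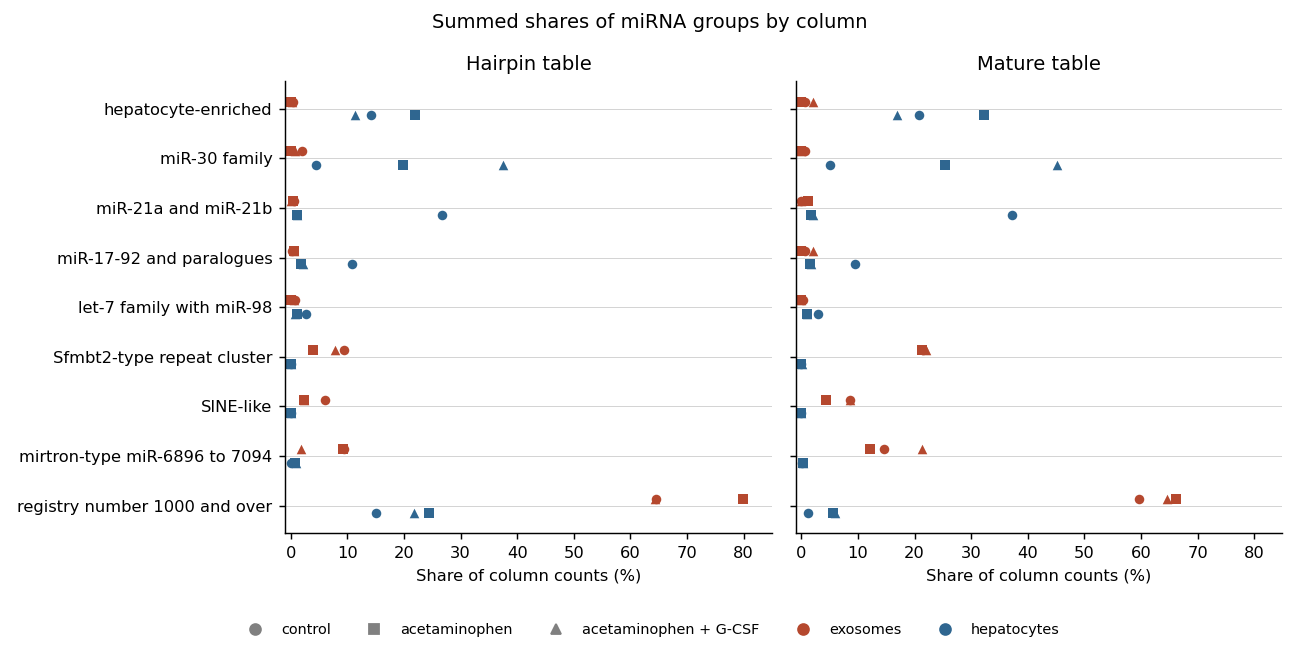
Summed share of column counts, in percent, for 9 groups of miRNAs in the hairpin table (left) and the mature table (right); each symbol is 1 column, red for exosomes and blue for hepatocytes, with the shape giving the treatment. Exosome columns lie above hepatocyte columns for the repeat lists, the mirtron-type list and registry numbers of 1000 and over, and below them for the hepatocyte-enriched and miR-30 lists.

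The mature table, from the same libraries, gave a similar picture on fewer counts. miR-3470b had 12, 1 and 2 exosome counts and none in hepatocytes, a share at least 386-fold larger. miR-466i-3p had 7.783, 3.833 and 2 exosome counts against 0, 0 and 0.5, a ratio of 2103 (164 to 45707). miR-669c-3p had 8.833, 2.333 and 3 against 0, 0 and 0.5, a ratio of 2188 (164 to 45707). For these miRNAs each exosome column stood above each hepatocyte column, which held for 5 of the 120 measured miRNAs (4.17%). Each of them was measured through exosome counts alone, with at most 0.5 hepatocyte counts. At this difference in depth that route nearly fixed the order of the columns, so the order is no support for these calls.

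miR-1187 had 11.37, 1.283 and 0.3333 exosome counts and none in hepatocytes, at least 334-fold, and miR-466i-5p 9.483, 2.783 and 0.3333 and none, at least 324-fold. miR-5129-5p had 13 counts and miR-8117 10 counts, all in the exosome control column, with none in hepatocytes. Their shares were at least 335-fold and 257-fold larger and rested on 1 column. miR-7058-3p, with 5 exosome and 12 hepatocyte counts, and miR-574-3p, with 1.5 and 15, completed the 10. miR-574-3p turned to a smaller exosome share under both scalings and miR-7058-3p under DESeq2 factors. Of the 10 mature miRNAs, 7 had a hairpin of larger share, beside 22.8% of all measured hairpins. miR-466i-3p and miR-466i-5p have the same hairpin, so the 7 are not separate observations. Mature and hairpin counts come from the same libraries, so this is no independent check. The hairpin of miR-5129 had no count in either material.

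Hepatocyte miRNAs were nearly missing from the exosome columns. The hepatocyte-enriched list (miR-122, miR-192, miR-194, miR-215 and miR-148a) held 14.25, 21.96 and 11.37% of hepatocyte hairpin counts in control, acetaminophen and acetaminophen plus G-CSF, and 0.3294, 0 and 0.2891% of exosome counts. The sums were 15.1% and 0.2798% (0.08719 to 0.8166%), so the list was 54-fold smaller in exosomes (18.4 to 173). Of its 6 measured hairpins, 5 had a smaller share. All 6 were measured through hepatocyte counts alone and are abundant there, so that this count is no support beside the 10.8% of all hairpins. The remaining one, mir-148a, had no exosome count and too few hepatocyte counts, 2172, for a call at this depth. By these markers the cell columns carry the labelled cell type, while the exosome columns show little of it.

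mir-122 had 2, 0 and 0.5 exosome counts against 41924, 9279 and 4320 in hepatocytes. Its share was 24-fold smaller in exosomes (6.84 to 97), with each exosome column below each hepatocyte column. The mature miR-122-5p had 1, 0 and 1 counts against 3767, 920 and 443.3, a 33.2-fold smaller share (9.19 to 274). mir-192 had 1 exosome count, in the control column, against 31067, 12777 and 5426, a 53.2-fold smaller share (9.55 to 2103). mir-215 had none against 29995, 12387 and 5173, at least 17.1-fold smaller. mir-192 and mir-215, whose mature forms share a seed, were the 2 hairpins with intervals below 1 in each treatment. mir-194-1 and mir-194-2 had no exosome count and were at least 3.63-fold and 3.67-fold smaller.

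mir-21a, the precursor of a miRNA that is raised in growing and injured liver, had the most hepatocyte counts. It had 1.333, 0.25 and 0 exosome counts against 119094, 1220 and 1018 in hepatocytes. Its hepatocyte share was 14.2% in the control column and 0.679 and 0.7306% in the treated columns, against 0.1464, 0.1494 and 0% in exosomes. The 82.8-fold smaller exosome share (18.1 to 541) was therefore set by the control columns, and the interval excluded 1 only there. mir-21b had 2.25 exosome counts against 105187, 50.5-fold smaller (15.7 to 469), and mir-3965 had 1.583 against 116683, 79.6-fold smaller (17.5 to 521). The counts of mir-3965 followed those of mir-21a in every column, no mature count of miR-3965 was present in hepatocytes, and the longest run of letters shared by both hairpins was 9 bases.

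The miR-30 family, abundant in liver and kidney, held 1.599% of exosome hairpin counts (0.9792 to 2.458%) and 10.78% of hepatocyte counts, and all 6 measured hairpins had a smaller share, beside 10.8% of all hairpins, again measured through hepatocyte counts alone. By column the family held 2.042, 0 and 0.8095% in exosomes and 4.386, 19.91 and 37.49% in hepatocytes, so the gap was widest in the treated columns. mir-30c-1 had 5.2, 0 and 0 exosome counts against 8001, 12529 and 20542 in hepatocytes, 8.53-fold smaller (3.8 to 27.3). In the control columns, which held all its exosome counts, it was 1.67-fold smaller and the interval included 1. mir-30c-2 had 5.2, 0 and 1 against 8013, 12533 and 20547, 7.16-fold smaller (3.4 to 20.2) and also 1.67-fold in control. Both hairpins give miR-30c-5p and had near-equal counts, so they cannot be taken as separate observations. miR-30c-5p had no exosome count against 451.2, 844.8 and 1437 and was at least 11.8-fold smaller, with intervals below 1 in each treatment. miR-30b-5p had no exosome count against 1011 and was at least 4.37-fold smaller.

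The miR-17-92 cluster and its paralogues, known from proliferating cells, held 0.3198% of exosome counts (0.08719 to 0.8166%) and 8.377% of hepatocyte counts. Of 14 measured hairpins 3 had a smaller share and 0 a larger one, beside 10.8% and 22.8% of all hairpins. All 14 were measured through hepatocyte counts alone. The 3 were mir-19a and mir-19b-2, with no exosome count against 27078 and 27512, and mir-19b-1, with 1 against 27722. With counts so close, these 3 hairpins cannot be taken as separate observations. Their hepatocyte shares were 3.064 to 3.126% in control and at most 0.5155% in treated cells, so this difference too was carried by the control columns. The let-7 family with miR-98 held 0.6742% of exosome counts (0.2765 to 1.256%) and 2.256% of hepatocyte counts. Of its 13 measured hairpins let-7a-1 had a smaller share, 8.02-fold, and let-7k, with 2 exosome counts, a larger one, 54-fold, neither count above the proportion of all hairpins.

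mir-191 had no exosome count against 12923, 2844 and 1279 and was at least 6.14-fold smaller. mir-31 had 1 exosome count against 17449, 288.5 and 127.5, 19.3-fold smaller (3.46 to 762). The miR-15/16 family held 0.1759% of exosome counts (0.01937 to 0.5763%) and 2.977% of hepatocyte counts, with 3 of 8 measured hairpins smaller, beside 10.8% of all hairpins. The miR-103 and miR-107 hairpins held 0.07994% (0.002024 to 0.4446%) and 1.807%, with 3 of 3 smaller beside the same 10.8%, although their columns overlapped (exact permutation p = 0.5). The hairpins of both lists were measured through hepatocyte counts alone. mir-103-1, mir-103-2 and mir-107 each had 6975.2 hepatocyte counts, and mir-16-1 and mir-16-2 had 9689.77 and 9688.72. Hairpins with such equal or near-equal counts cannot be taken as separate observations. The miR-29 family held 0.1759% (0.01937 to 0.5763%) and 1.148%, and none of its 4 hairpins was called in either direction. The exact permutation p was 0.1, the smallest possible, for the hepatocyte-enriched, miR-21, miR-30, miR-17-92, let-7, miR-29 and miR-15/16 lists. All 13 mature miRNAs of smaller exosome share had a hairpin of smaller share, beside 10.8% of all hairpins. Mature and hairpin counts come from the same libraries, and only entries abundant in hepatocytes could be called smaller. This is therefore no independent check.

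In exosomes the erythroid, mesenchymal and neural marker lists held more than the 0.2798% of the hepatocyte-enriched list, and the other marker lists held less. The erythroid list held 2.222% of exosome hairpin counts and 1.676% of hepatocyte counts. In exosomes this was nearly all mir-486. In hepatocytes it was nearly all mir-16-1 and mir-16-2, with 9690 and 9689 counts, whose miRNA is expressed in many cell types. The red-cell members mir-486 and mir-451a (1.5 against 13 counts, interval of the ratio 15.6 to 629) had a larger share in exosomes, and both mir-16 hairpins, with 0.4 exosome counts each, a smaller one. In the mature table the erythroid list held 0.3171% in exosomes and 1.322% in hepatocytes, the opposite order. The endothelial marker mir-126a had 0 exosome counts against 4911, where the depth did not allow a call. The leukocyte list held 0.07994% in exosomes and 0.2848% in hepatocytes, and the biliary and epithelial list 0.2132% and 1.552%. Columns overlapped in both lists. The order was reversed in control for the leukocyte list (0.1098 against 0.06686%). With acetaminophen it was reversed for the biliary and epithelial list (0.3984 against 0.1875%). The mesenchymal and stellate list held 0.4197% and 0.03649%, an 11.5-fold larger share in exosomes (3.54 to 25.8), with every exosome column above every hepatocyte column (exact permutation p = 0.1). The striated muscle list held 0.1199% and 0.002954%, 40.6-fold (6.34 to 212), and the neural list 0.3198% and 0.01532%, 20.9-fold (5.64 to 54.5), both with overlapping columns. Apart from the erythroid list, these lists rested on 0 to 5.25 exosome counts, and the part of other cells in the results was not tested.

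Counts were spread more evenly over hairpins in exosomes. The 10 most abundant hairpins held 22.37% of exosome counts and 54.67% of hepatocyte counts, and 50% of the counts were reached with 53 hairpins in exosomes and with 9 in hepatocytes. With counts rounded to whole numbers, 455 hairpins were detected in exosomes. Hepatocytes thinned to the 1265 rounded exosome counts were expected to show 125.7. Mature miRNAs detected in exosomes numbered 244 against an expected 75.83. Estimated counts were partly fractional, and rounding raised the exosome hairpin total from 1250.95 to 1265. The thinning draws whole counts and does not divide a read over several entries. The numbers detected and expected are therefore not like for like, and the part of this in their difference was not tested. Of the hairpins with any exosome count, 48 had one in all 3 exosome columns and 356 in 1 column.

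**Figure D5:**
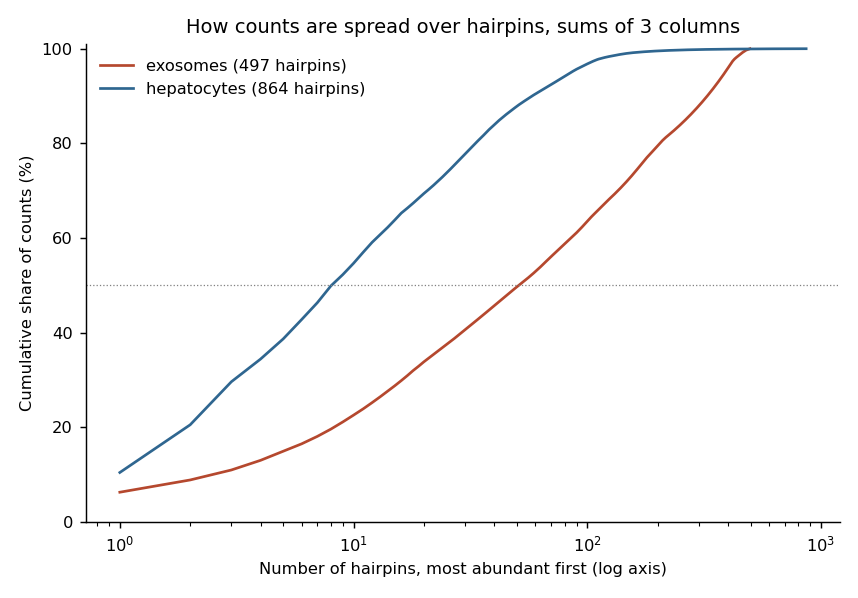
Cumulative share of summed hairpin counts, in percent, over hairpins ordered from the most abundant (log axis), for exosomes (red) and hepatocytes (blue). The hepatocyte curve passes the dotted 50% line at 9 hairpins and the exosome curve at 53.

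Hairpin and mature counts also stood in another proportion. Exosome columns had 1.839 to 3.68 hairpin counts per mature count and hepatocyte columns 31.32 to 33.72, with no overlap (exact permutation p = 0.1, the smallest possible). Low values were not limited to hepatocyte exosomes, since the treated serum exosome columns had 1.056 and 5.818 and acetaminophen-treated liver 5.652. Of the 12 hairpins that kept a larger share under every scaling, mir-486, mir-5098, mir-8111, mir-6398, mir-6369 and mir-3473c had no mature count in exosomes. mir-3470b had 15 mature exosome counts, mir-8117 had 10 and mir-669c had 14.17.

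An edgeR quasi-likelihood test took the 3 columns of a material as its samples. Of 376 hairpins with at least 10 counts over the 6 columns, 69 (18.4%) had a larger and 13 (3.46%) a smaller share in exosomes at an adjusted p under 0.05. Of the 82 hairpins called larger from summed counts, 57 passed this test, and of the 39 called smaller, 13 passed. None was called in opposite directions. The smallest adjusted p was 6.89e-05, shared by mir-486, mir-3472, mir-3471-1, mir-5098, mir-8111 and others. mir-122 passed with an edgeR adjusted p of 0.0439, mir-192 with 0.0121, mir-215 with 0.00981 and mir-21a with 0.0342, while mir-2137 had 0.607. The 13 calls of a smaller share became 0 without the exosome control column, 1 without either treated exosome column, 5 without either treated hepatocyte column and 35 without the hepatocyte control column. Without the exosome control column 11 hairpins were larger, with 38 at an unadjusted p under 0.05, and under TMM factors the split was 18 and 156. On simulated counts with an assumed dispersion, only hairpins of low share were made larger. Of these, counting only hairpins that reached the count limit, 36 of 40 made 200-fold larger and 1 of 31 made 8-fold larger were called. Of the hairpins not made larger, 12 of 50 made 200-fold smaller, 4 of 50 made 8-fold smaller and 2 of 173 left unchanged were called. Simulated hairpins below the limit are left out of these totals. At these settings smaller differences were mostly out of reach.

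Depth moved with these shares across the whole study. Serum exosomes, which came from mice given 500 mg/kg acetaminophen with or without 100 µg/kg G-CSF or from untreated mice, had 2 treated columns with 460.3 and 4026.07 hairpin counts. In those treated columns registry numbers of 1000 and over held 69.29 and 73.11% of hairpin counts, near the 64.4 to 79.87% of hepatocyte exosomes. The serum control column, with 181243 counts, had 6.26%. In the 5 columns of the study with fewer than 10000 hairpin counts this share was 64.4 to 79.87%, and in the 7 deeper columns 4.162 to 24.49%. The Sfmbt2-type share was 4.004 to 9.433% in the former and 0.03336 to 0.09844% in the latter. Over the 21 lists of hairpins, hepatocyte and serum exosomes were not separated beyond the spread of their columns (exact permutation p from 0.2 to 1, with 0.1 the smallest possible), which does not show that they are alike. In the mature table the list of miR-2137, miR-5097 to miR-5136 and miR-6236 to miR-6244 was separated (exact permutation p = 0.1), with 7.811 to 31.87% in hepatocyte exosomes and 0.1535 to 4.014% in serum exosomes. The part of depth in the difference between exosomes and hepatocytes was not tested, and all 3 exosome columns were shallow.

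Motifs named for miRNA sorting into vesicles were counted in the mature sequences as letters, on the RNA strand. GGCU, described for hepatocyte exosomes, was present in 1 of 8 sequences of larger share (miR-3470b), 0 of 11 of smaller share and 13.28% of all 1679 RefSeq mature miRNAs. GGAG was present in 1 of 8 (miR-2137), 0 of 11 and 14.18%. CCCU was present in 0 of 8, 0 of 11 and 11.38%.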

How the data were processed

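Per the file headers, the tables hold estimated counts as deposited, for hairpins and for mature miRNAs, with no scaling to depth. The authors had combined the PGM and Proton libraries of a condition, so 3 columns per material and no replicates of a condition remained. Per the labels' protocols, total RNA was purified with a Norgen kit and small RNA libraries were built with an Ion Total RNA-Seq Kit v2. Not given in the sources used here are the aligner, annotation and build behind the counts and the rule that divided reads matching several entries.

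Columns were summed by material. Shares carry exact Clopper-Pearson intervals and ratios exact conditional intervals (95%) on counts rounded to whole numbers, with a sum of 0 replaced by a floor of 3 and given as a bound. An entry was called at a ratio of at least 2 with an interval excluding 1. Hairpins were also tested with edgeR 4.0.16 (quasi-likelihood, rounded counts, column totals, Benjamini-Hochberg, R 4.3.3) with treatments as samples of a material, and DESeq2 1.42.0 was an alternative. p-values therefore measure the spread between treatments. Lists were compared by exact permutation of 3 against 3 columns (Python 3.11.15, SciPy 1.17.1) and carry no adjustment over the 21 lists, since none could pass 0.05. The scripts were tested on simulated data. Entries named are those with the most counts on a side, those called whose interval lay farthest from 1, and members of the lists with at least 10 exosome counts; other examples were chosen after their values were seen. Members and lists were chosen with earlier results of these data known. Sequences and places come from RefSeq and GENCODE annotation of GRCm38, in which 53 of the 82 hairpins of larger share had an entry.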

Additional observations from a re-analysis of the deposited data

How the results depend on the processing

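Hairpins with a larger share numbered 125 at a minimum of 5 counts, 45 at a minimum of 20, 34 with columns weighted equally, 13 under TMM, 12 under DESeq2 factors and, in a choice made after seeing the data, 21 where at least 10 exosome counts were required. Leaving out columns gave 19 to 78. Hairpins with a smaller share numbered 23 at 4-fold, 190 with columns weighted equally, 256 under TMM and 290 under DESeq2 factors, and 11 to 36 with columns left out. Mature miRNAs with a larger share numbered 21 at a minimum of 5 counts, 1 at a minimum of 20 and 6 with columns weighted equally, and 1 to 10 with columns left out. Those with a smaller share numbered 79 with columns weighted equally, 79 under TMM, 21 without the 5 largest entries and 108 under DESeq2 factors, and 4 to 15 with columns left out.

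The edgeR test called 18 larger and 156 smaller under TMM, 21 and 127 by DESeq2, and 340 and 32 without a filter on low counts. Leaving out columns gave 11 to 63 larger and 0 to 35 smaller. The replicate block by treatment gave 59 and 15, against 69 and 13 without it, and whether exosomes and cells of a treatment came from the same cultures is not given in the labels. Under TMM, log2 ratios turned negative for mir-2137 (-6.30), mir-1895 (-0.99), mir-7116 (-0.45), mir-221 (-4.20), mir-6240 (-5.62), miR-2137 (-1.40) and miR-574-3p (-0.94). Under DESeq2 factors they did so for mir-2137 (-6.88), mir-3473f (-0.29), mir-1895 (-1.58), mir-7116 (-1.04), mir-221 (-4.79), mir-6240 (-6.21), miR-2137 (-2.98), miR-7058-3p (-0.47) and miR-574-3p (-2.53). With columns left out that of mir-2137 ran from -0.17 to 3.03, the lowest without the hepatocyte control column. Exosome minus hepatocyte share turned negative in the mature table for the erythroid (-0.7991 percentage points), striated muscle (-0.006254) and neural (-0.006233) lists, and for the erythroid list without the 5 largest entries (-1.87). Apart from the scalings' own shift, the cause of these changes was not tested. Of the other values recomputed, 921 kept their direction and their side of the call and 67 of single entries kept their direction but not the call.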

Other observations

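Families with a larger exosome share were also found outside the lists, chosen after their values were seen, so they carry no test. The mir-3473 family had 7 entries, of which 6 were measured and all 6 had a larger share in exosomes, beside 22.8% of all measured hairpins. Together they held 5.63% of exosome hairpin counts and 0.0244% of hepatocyte counts, with 5.844, 4.253 and 5.84% in the control, acetaminophen and acetaminophen plus G-CSF exosome columns. The 2 mir-3471 hairpins held 2.641% and 0.002361%. Of 5 measured mir-181 hairpins, precursors of a miRNA family known from lymphocyte development, 3 had a larger share, beside the same 22.8%. Among these, mir-181b-1 and mir-181b-2 had the same counts, 7 in exosomes and 42.1667 in hepatocytes, and cannot be taken as separate observations. All 6 mir-181 entries together held 1.912% of exosome counts and 0.01725% of hepatocyte counts, with 0% in the acetaminophen exosome column.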
